A study of Mus musculus with 12 samples.

Results

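The 8 core clock genes described here are the activators Arntl, Clock and Npas2, the period genes Per1, Per2 and Per3, and the cryptochrome genes Cry1 and Cry2. They were taken by symbol from the 32288 gene rows of each count file, and all 8 were among the 18804 genes that passed the filter on low counts (a total of at least 10 over the 12 libraries). RNA-seq was performed on whole subcutaneous tumors grown in adult DBA/2 mice from P815, a mouse mastocytoma (mast cell tumor) cell line, with 1 tumor per mouse. The engineered tumors (P815-IFNG) carried GAVPO, a blue-light-sensing transcription factor driven by the EF-1α promoter, a UAS promoter that GAVPO activates in front of Ifng, Cxcl10 and a Gaussia luciferase, and an EF-1α-driven mRuby and firefly luciferase cassette, whereas the control tumors (P815-M) had that cassette but no light-controlled cytokine module. For each line, 3 mice were placed under blue light for 12 h a day (light group) and 3 were kept without blue light (dark group), and tumors were taken after 6 days of illumination. How the cages of the dark group were lit is not given in the sources used here. Each line was derived from 1 single-cell clone, so that clone and transgene cannot be told apart, and the time of day at which tumors were taken is not given in the sources used here.

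The mammalian clock is a negative feedback loop of transcription. BMAL1 (encoded by Arntl) pairs with CLOCK, or with its paralog NPAS2, and binds E-box sequences to activate the Per and Cry genes, whose proteins return to the nucleus and repress that pair. Light normally reaches the clock through the eye, which sets the pacemaker of the brain, and tissues follow it through signals that include glucocorticoids, while Per1 is also known to respond acutely to glucocorticoid and cAMP signalling. The comparisons therefore asked whether daily blue light moved the activator and the repressor genes, in opposite directions or otherwise, and whether the lines differed.

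Promoter windows of 300 bases (250 before and 50 after a transcript start, RefSeq, GRCm38.p6) were found for 7 of the 8 genes, the exception being Per2. The windows below show the sequence elements of the loop in the gene on which the results turn, Per1, and in 1 further repressor, Cry1, and 1 activator, Arntl. Capitals mark matches on either strand to the E-box CACGTG, the E-prime box CACGTT, the CRE core TGACGT or the ROR core AGGTCA.
Per1 chr11:69098699-69098998 (+): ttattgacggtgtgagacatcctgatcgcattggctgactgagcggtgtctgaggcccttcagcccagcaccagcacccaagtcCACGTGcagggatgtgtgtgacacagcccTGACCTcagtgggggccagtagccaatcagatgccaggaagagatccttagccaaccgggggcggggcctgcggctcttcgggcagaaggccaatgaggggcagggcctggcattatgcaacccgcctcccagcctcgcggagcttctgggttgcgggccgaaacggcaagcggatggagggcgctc
Per1 chr11:69099902-69100201 (+): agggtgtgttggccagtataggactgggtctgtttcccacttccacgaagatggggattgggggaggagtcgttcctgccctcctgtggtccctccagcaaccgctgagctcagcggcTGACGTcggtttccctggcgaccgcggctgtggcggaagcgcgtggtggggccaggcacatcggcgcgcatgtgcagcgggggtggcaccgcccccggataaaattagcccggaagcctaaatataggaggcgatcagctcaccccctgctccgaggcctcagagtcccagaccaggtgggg
Cry1 chr10:85185005-85185304 (-): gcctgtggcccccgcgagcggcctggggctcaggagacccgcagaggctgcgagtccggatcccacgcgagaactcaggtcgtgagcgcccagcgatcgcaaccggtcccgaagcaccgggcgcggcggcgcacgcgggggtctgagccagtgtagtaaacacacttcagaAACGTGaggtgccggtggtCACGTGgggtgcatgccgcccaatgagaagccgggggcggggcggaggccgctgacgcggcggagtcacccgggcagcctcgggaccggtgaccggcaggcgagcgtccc
Arntl chr7:113207261-113207560 (+): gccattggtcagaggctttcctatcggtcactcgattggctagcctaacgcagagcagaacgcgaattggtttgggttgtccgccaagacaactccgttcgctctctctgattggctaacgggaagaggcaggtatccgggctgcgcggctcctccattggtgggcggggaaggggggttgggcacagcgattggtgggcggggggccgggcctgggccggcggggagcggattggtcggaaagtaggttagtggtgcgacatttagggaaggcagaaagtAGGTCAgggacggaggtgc
The upstream Per1 window held an E-box and a ROR core, and the downstream one a CRE core. The Cry1 window held an E-box and an E-prime box, and the Arntl window a ROR core. Among all 32851 mouse promoter windows of this length, 7.15% held an E-box, 4.68% an E-prime box, 7.51% a CRE core and 16.3% a ROR core. The pattern ACANNNTGT, a loose form of the glucocorticoid receptor site, was held by none of the windows of the 7 genes and by 6.85% of all windows. No element was found in the windows of Npas2 and Per3, which says only that these letters are absent there.

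Of the 12 libraries, 10 held between 2211234 and 2946792 counts, whereas the third P815-IFNG light and the third P815-IFNG dark library held 41473500 and 42338096. The former are called shallow and the latter deep. The 2 deep libraries also differed in mt-Nd6, the only mitochondrial protein gene on the opposite strand, which took 3.56% and 3.85% of mitochondrial coding counts there and 29.0% to 47.9% in the shallow ones. The deep libraries are therefore given apart, and the fit of each comparison carried a term for them unless stated. Counts of genes that overlap on opposite strands also differed. In 576 pairs with at least 100 bases of shared exon, in which 1 gene had at least 1000 counts and 10 times those of its partner in the deep light library, the partner took a median of 3.58% of the pair's counts in the deep dark library. In the 10 shallow libraries this median was 48.6% to 66.5%, and the partner was ahead in 48.1% to 63.5% of pairs. The kit marks strand. For counting, the study's methods give default parameters of HTSeq, and no strand setting is named for any library in the sources used here. What share of a gene's counts in the shallow libraries came from its own strand was not tested, and each CPM of these libraries carries that limit. No P815-M library was deep. In the GENCODE annotation, exons on the opposite strand covered 295 exonic bases of Cry2 (4.67%) and 33 of Arntl (0.439%), and none of the other 6 genes. Of 13 mast cell markers, Kit, Cpa3, Gata2, Cma1 and Tph1 were present in every library, while Fcer1a, a chain of the IgE receptor, was at 0 in 10 libraries and Ms4a2 in 7. Because whole tumors were sequenced, fewer cells of a type and less RNA per cell cannot be told apart.

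Per1 was the most abundant of the 8 genes. In CPM (counts scaled to library size with TMM factors) per kilobase of exon, its level averaged 15.9 ± 10.7 (SD, n = 10 shallow libraries). It was followed by Cry2 with 3.27 ± 0.81, Per2 with 2.60 ± 0.73 and Clock with 1.84 ± 0.34. Arntl (0.50 ± 0.33), Cry1 (0.42 ± 0.40), Per3 (0.37 ± 0.22) and Npas2 (0.15 ± 0.16) lay lowest on the same scale. In the 2 deep libraries Per1 was also highest, with 15.6 in light and 14.9 in dark (CPM per kilobase). Per2 came next in light (4.61, Cry2 4.34) and Cry2 in dark (4.50, Per2 4.21). Only Per1 and Cry2 were neighbours whose ranges over the 10 libraries did not overlap. The median raw count per library was 117.5 for Per1, 55 for Clock, 45 for Cry2 and 34 for Per2, but 7.5 for Arntl, 7 for Per3, 2.5 for Cry1 and 1.5 for Npas2. Statements on the last 4 genes thus rest on few reads in these libraries. A limit of 3 counts corresponded to 0.931 to 1.56 CPM in them and to 0.0670 and 0.0694 CPM in the deep libraries, counting error only.

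**Figure D1:**
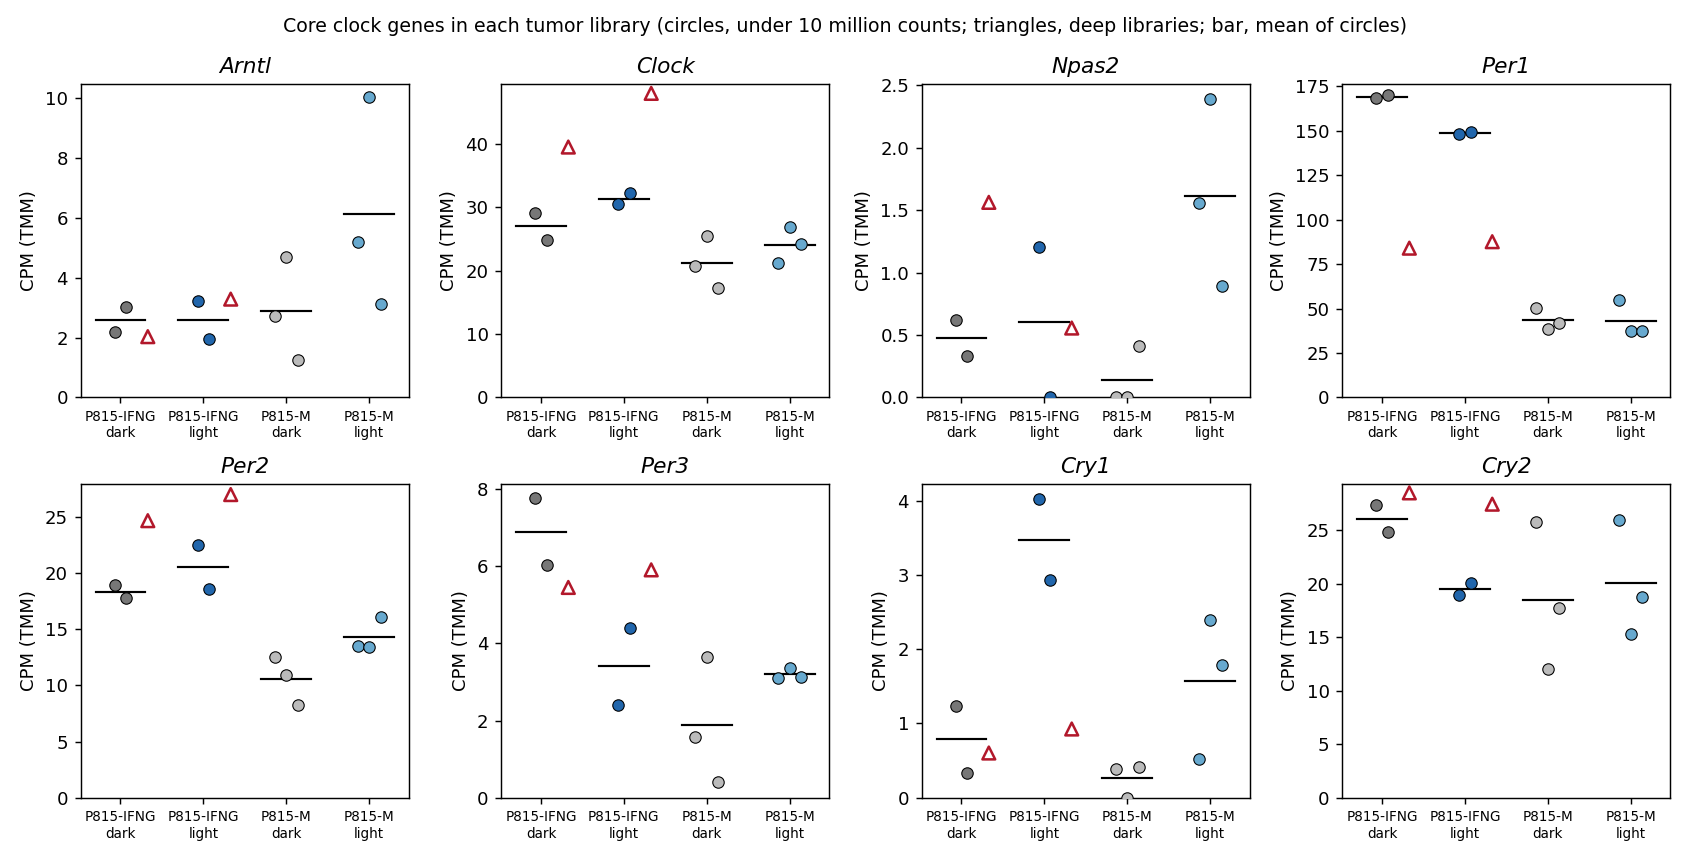
Level of each core clock gene (CPM, TMM-scaled, linear axis from 0) in each tumor library by line and light condition. Circles are the shallow libraries, bars their mean, and triangles the 2 deep P815-IFNG libraries. Per1 lies at 148 to 170 CPM in the P815-IFNG circles and at 37.1 to 55.0 CPM in P815-M.

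No core clock gene was called between the light and dark groups, either with both lines together or within a line. Genes counted as called where the quasi-likelihood test of edgeR gave a p of 0.05 or less after Benjamini-Hochberg adjustment over all 18804 genes and the log2 fold change reached 1 in size. The background was 0.792% of all genes called with both lines together, 0.0106% in P815-IFNG and 1.03% in P815-M tumors. Without adjustment, 1 of the 8 genes (Cry1) was under 0.05 with both lines together, 0 in P815-IFNG and 1 (Npas2) in P815-M tumors, against 15.8%, 8.34% and 12.5% of all genes. DESeq2 called none of the 8 genes either.

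Among the activators, Clock, the DNA-binding partner of BMAL1, had the most reads. Its level was 30.6, 32.2 and, in the deep library, 48.0 CPM in P815-IFNG light tumors and 29.2, 24.8 and 39.5 CPM in P815-IFNG dark tumors. In P815-M tumors it was 21.3, 26.8 and 24.1 CPM in light and 20.7, 25.5 and 17.3 CPM in dark. The light values lay above the dark ones in P815-IFNG when like libraries were compared, and overlapped them in P815-M. The log2 fold change, light minus dark, was 0.22 ± 0.15 (SE) with both lines together (edgeR's quasi-likelihood test, adjusted p = 0.504), and its 95% interval bounded the change between 0.941-fold and 1.44-fold.

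Arntl, which encodes the obligate partner BMAL1, was low in all tumors. Its level was 3.22, 1.95 and, in the deep library, 3.29 CPM in P815-IFNG light and 2.17, 3.02 and 2.03 CPM in P815-IFNG dark tumors. In P815-M tumors it was 5.19, 10.1 and 3.13 CPM in light and 2.73, 4.69 and 1.23 CPM in dark. The groups overlapped in P815-M, where the highest light library drew on 21 reads. The log2 fold change was 0.72 ± 0.43 (SE) with both lines together, 0.32 ± 0.59 in P815-IFNG and 1.11 ± 0.62 in P815-M (edgeR's quasi-likelihood test, adjusted p = 0.440, 0.936 and 0.490). Between the deep libraries, which have no replicate of their depth, Arntl had 142 counts in light and 91 in dark, a ratio of 1.62 (95% exact interval 1.23 to 2.13, counting error only).

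Npas2, which can stand in for CLOCK, was near the limit of detection. In P815-M light tumors 3, 5 and 2 counts were found, and in P815-M dark tumors 0, 0 and 1, so that the groups did not overlap. The ratio of the summed counts, 10 against 1, was 11.1 after scaling, with a 95% exact interval of 1.57 to 480 (counting error only). The fitted test did not pass after adjustment (edgeR's quasi-likelihood test, adjusted p = 0.328). In P815-IFNG tumors the direction was mixed, with 3 and 0 counts in light and 2 and 1 in dark, while the deep libraries had 24 in light and 70 in dark, a ratio of 0.356 (95% exact interval 0.214 to 0.572). The difference between the lines in the light effect on Npas2 was not called (edgeR's quasi-likelihood test, log2 difference -4.00 ± 1.81 (SE), adjusted p = 0.846).

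Among the period genes, Per1, a repressor that is also induced early by many signals, did not follow the light condition. It was at 148, 149 and, in the deep library, 87.6 CPM in P815-IFNG light tumors, and at 169, 170 and 84.0 CPM in P815-IFNG dark tumors. In P815-M tumors Per1 was at 55.0, 37.3 and 37.1 CPM in light and 50.4, 38.5 and 42.0 CPM in dark. Light and dark overlapped in P815-M, and in P815-IFNG the light libraries lay below the dark ones except for the deep libraries. The log2 fold change with both lines together was -0.06 ± 0.13 (SE, edgeR's quasi-likelihood test, adjusted p = 0.880), with a 95% interval of 0.796-fold to 1.15-fold.

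Per2, the period protein whose loss shortens and then abolishes behavioural rhythms in mice, was at 22.5, 18.5 and, in the deep library, 27.0 CPM in P815-IFNG light tumors and at 18.9, 17.8 and 24.7 CPM in P815-IFNG dark tumors. In P815-M tumors Per2 was at 13.5, 13.4 and 16.1 CPM in light and 12.5, 10.9 and 8.23 CPM in dark. Every P815-M light library lay above every dark one, while shallow libraries overlapped in P815-IFNG. The log2 fold change was 0.30 ± 0.18 (SE) with both lines together and 0.44 ± 0.27 in P815-M (edgeR's quasi-likelihood test, adjusted p = 0.440 and 0.531). A two-sided exact permutation test of the mean log2 CPM, which permuted the light labels within line and depth, gave p = 0.0167 for Per2. This was 1 of 8 such tests, whose smallest possible p is 0.00833.

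Per3, which is not required for the loop, was at 2.41, 4.39 and, in the deep library, 5.90 CPM in P815-IFNG light and at 7.76, 6.03 and 5.45 CPM in P815-IFNG dark tumors. In P815-M tumors Per3 was at 3.11, 3.35 and 3.13 CPM in light and 1.56, 3.65 and 0.412 CPM in dark. The light libraries were the lower ones in P815-IFNG outside the deep libraries, and overlapped the dark ones in P815-M. The log2 fold changes were -0.54 ± 0.52 (SE) in P815-IFNG and 0.84 ± 0.67 in P815-M, and their difference was not called (edgeR's quasi-likelihood test, -1.38 ± 0.85, adjusted p = 0.890).

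Of the cryptochromes, which bind and inhibit the activator pair, Cry1 had the largest light-minus-dark estimate with both lines together. Counts of Cry1 were 10, 6 and, in the deep library, 40 in P815-IFNG light tumors and 4, 1 and 27 in P815-IFNG dark tumors. In P815-M tumors they were 1, 5 and 4 in light and 1, 0 and 1 in dark. On the CPM scale the groups did not overlap within either line among shallow libraries, with 2.93 to 4.02 CPM in light against 0.335 to 1.24 CPM in dark for P815-IFNG, and 0.519 to 2.39 against 0 to 0.412 CPM for P815-M. In P815-M the lowest light and the highest dark library each had 1 read, so their order came from the scaling alone. The log2 fold change was 1.94 ± 0.72 (SE) with both lines together (edgeR's quasi-likelihood test, adjusted p = 0.184). The exact permutation test described for Per2 gave p = 0.00833 for Cry1, the smallest p that this test can give. It used the same scaled values. The ratio of light to dark in the deep libraries was 1.54 with a 95% exact interval of 0.920 to 2.60 (counting error only). With 1 deep library in each group, this ratio cannot decide whether Cry1 differed with light.

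Cry2 was at 18.9, 20.0 and, in the deep library, 27.4 CPM in P815-IFNG light tumors and at 27.3, 24.8 and 28.5 CPM in P815-IFNG dark tumors. In P815-M tumors Cry2 was at 26.0, 15.3 and 18.8 CPM in light and 25.8, 12.0 and 17.7 CPM in dark. The P815-IFNG light libraries lay below the dark ones of like depth, and the P815-M groups covered the same range. The log2 fold change with both lines together was -0.09 ± 0.19 (SE, edgeR's quasi-likelihood test, adjusted p = 0.881), with a 95% interval of 0.714-fold to 1.24-fold.

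Groups that did not overlap were counted over the shallow libraries. In P815-IFNG, 2 of the 8 genes were higher in light without overlap (Clock, Cry1) against 18.2% of all genes, and 3 were lower (Per1, Per3, Cry2) against 21%. In P815-M, 3 genes were higher (Npas2, Per2, Cry1) against 10.1% of all genes, and 0 were lower against 8.06%. For Cry1 this rests on a tie at 1 read that the scaling broke. The macrophage and monocyte markers also moved with light in the P815-M line. Estimates were positive for all 9, Lyz2 and C1qa were called (log2 fold change 1.82 and 1.11, edgeR's quasi-likelihood test, adjusted p = 0.0290 for each), and the summed level of the list was 1601 to 1859 CPM in light against 733 to 1049 CPM in dark. Their part in the values of Npas2, Per2 and Cry1 was not tested.

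Summed levels of other markers differed between light and dark in the P815-IFNG line, with 2 shallow libraries in each group. The summed level of 7 adipocyte markers was 10.7 to 21.3 CPM in light against 128 to 187 CPM in dark in the shallow libraries, but 92.0 against 18.4 CPM in the deep ones. For 7 endothelial markers it was 44.9 to 46.3 against 118 to 147 CPM, and 33.3 against 43.8 CPM in the deep libraries. In this comparison 0 adipocyte and 0 endothelial markers were called. All 10 skeletal muscle markers had lower estimates in light, with summed levels of 138 to 149 against 182 to 652 CPM and 146 against 242 CPM in the deep libraries. Of these, Myh4, a fast myosin heavy chain, was called lower in P815-IFNG light tumors and for the difference between the lines in the light effect, and Pvalb, the calcium buffer parvalbumin, was called lower with both lines together. The part of these cells in the values of Clock, Per1, Per3, Cry1 and Cry2 was not tested.

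**Figure D2:**
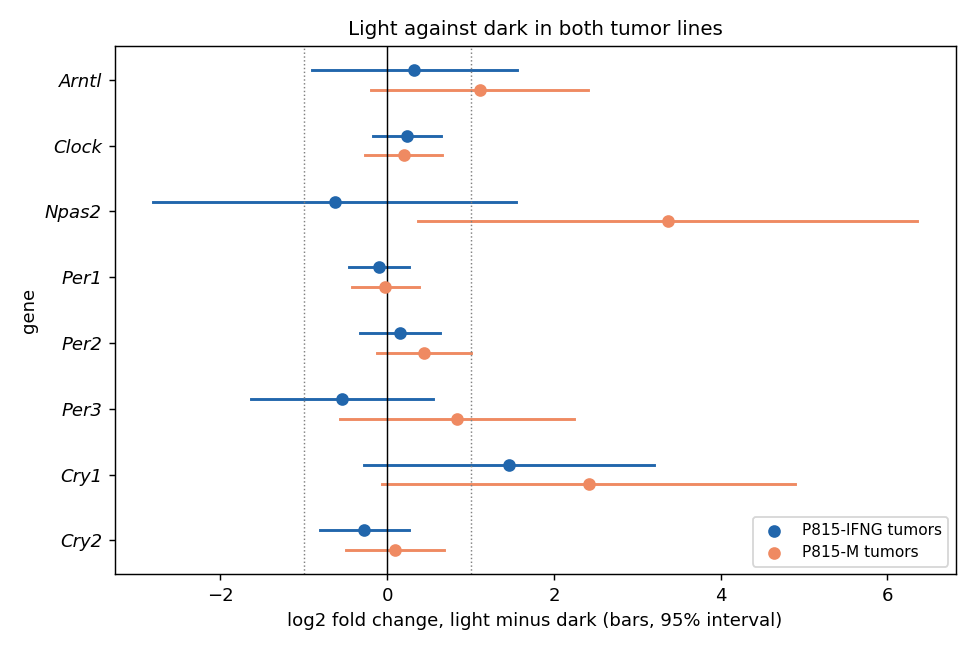
Log2 fold change of each core clock gene, light minus dark, in P815-IFNG and P815-M tumors. Points are edgeR estimates, horizontal bars their 95% intervals and dotted lines a log2 fold change of 1 in either direction. Intervals are narrow for Clock, Per1, Per2 and Cry2 and wide for Npas2 and Cry1, and no gene was called.

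No gene of either arm was called between light and dark. With both lines together, 3 of 3 activators and 3 of 5 repressors had a positive light-minus-dark estimate. The median log2 fold change was 0.72 for the activators and 0.15 for the repressors, beside -0.0027 for all genes. In P815-IFNG tumors the estimates were positive for 2 of 3 activators and 2 of 5 repressors, and in P815-M tumors for 3 of 3 and 4 of 5. The medians in P815-IFNG were opposite in sign, 0.24 for the activators and -0.10 for the repressors beside -0.03 for all genes, whereas in P815-M both were positive, 1.11 and 0.44 beside 0.0095.

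For each library, the mean log2 CPM of the activators minus that of the repressors was then taken as a description. In P815-M this difference was -0.55, -0.07 and -1.08 in light and -1.58, -0.83 and -0.93 in dark, so that the groups overlapped. In P815-IFNG it was -1.48, -2.63 and, in the deep library, -1.42 in light, and -2.04, -1.78 and -1.18 in dark, which overlapped too. Each arm taken alone was higher in every P815-M light library than in every P815-M dark library. The activator mean was 2.17 to 3.17 in light and 1.24 to 1.59 in dark, and the repressor mean 3.11 to 3.25 in light and 2.26 to 2.83 in dark (log2 CPM). These means give the sparsely counted Npas2 and Cry1 the same weight as Clock and Per1.

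**Figure D3:**
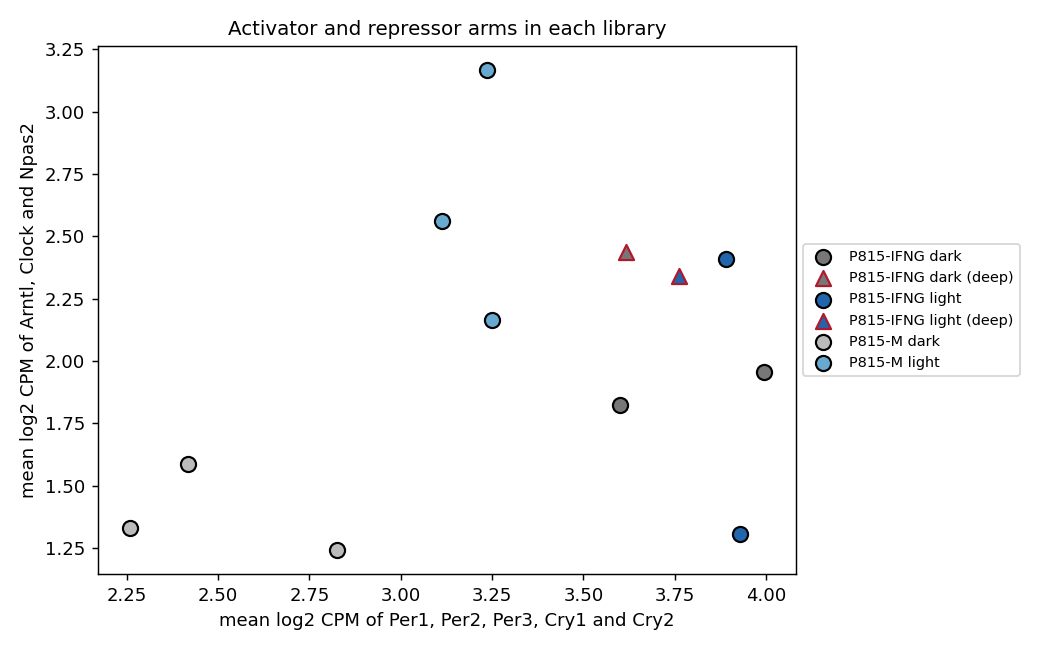
Mean log2 CPM of the activators Arntl, Clock and Npas2 (vertical) against that of the repressors Per1, Per2, Per3, Cry1 and Cry2 (horizontal) in each library. Circles are the shallow libraries and triangles the 2 deep libraries. The P815-M light libraries lie above and to the right of the P815-M dark libraries, whereas P815-IFNG light and dark libraries are mixed.

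The lines, in contrast, differed in the counts of Per1. No P815-M library was deep, so the strand limit given above applies to each P815-M value here. It applies equally to the shallow P815-IFNG libraries that they are compared with. Per1 was 3.56-fold higher in P815-IFNG than in P815-M tumors in the light group (95% interval 2.69 to 4.73; log2 fold change 1.83 ± 0.19 (SE), edgeR's quasi-likelihood test, adjusted p = 1.76e-05). In the dark group it was 3.76-fold higher (95% interval 2.85 to 4.95; 1.91 ± 0.19, adjusted p = 8.09e-06, the same test). The background was 0.436% of all genes called in light and 1.54% in dark, and Per1 was the 1 core clock gene called in each. In the dark group 72.4% of all calls were higher in P815-IFNG, and 60.3% with DESeq2's size factors in place of TMM.

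All shallow P815-IFNG libraries (148 to 170 CPM) lay above all P815-M libraries (37.1 to 55.0 CPM) in Per1. Over the shallow libraries, 12.9% of all genes in light and 18.6% in dark were higher in P815-IFNG without overlap. The 2 deep P815-IFNG libraries had 87.6 (light) and 84.0 (dark) CPM, and no P815-M library of their depth was there to compare. They were lower than the other P815-IFNG libraries, and the term for them was -0.89 on the log2 scale for Per1 (edgeR's quasi-likelihood test, adjusted p = 3.55e-04). Over all 18804 genes 46.5% were called for this term, with a median size of 1.31. The summed mast cell markers were at 12988 (light) and 9876 (dark) CPM in the deep libraries and at 2513 to 2655 CPM in the shallow P815-IFNG libraries, and the macrophage and monocyte markers at 816 and 690 against 1300 to 2015 CPM. Cpa3 made up much of the mast cell sum, with 7570 and 5469 CPM against 675 to 802 CPM. Not all mast cell markers moved alike, and Slc18a2 was lower in the deep libraries (41.25 and 43.1 against 64.35 to 98.1 CPM). The part of these differences in the deep-library values of Per1 was not tested. The call depended on this term, since with all 12 libraries and no term the log2 fold change was 1.57 in light and 1.69 in dark with adjusted p = 0.629 and 0.562 by the same test. With the deep libraries left out it was 1.79 and 1.95 (adjusted p = 0.000294 and 6.73e-05). A two-sided exact permutation test of the lines within light condition, over the 10 shallow libraries, gave p = 0.01 for Per1, the smallest p it can give.

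Per2 went the same way but was not called. Every shallow P815-IFNG library (17.8 to 22.5 CPM) lay above every P815-M library (8.23 to 16.1 CPM), and the shares of all genes given for Per1 apply here too. The deep P815-IFNG libraries were at 27.0 (light) and 24.7 (dark) CPM, again with no P815-M library of their depth. The log2 fold change, P815-IFNG minus P815-M, was 0.51 ± 0.27 (SE) in light and 0.80 ± 0.27 in dark (edgeR's quasi-likelihood test, adjusted p = 0.497 and 0.124). The exact permutation test of the lines gave p = 0.01 for Per2 too, and p = 0.03 for Clock, among 8 tests. It was run on these 8 genes only, which were chosen with earlier results known. What share of all genes would reach such values was not tested. Clock had log2 fold changes of 0.39 ± 0.22 in light and 0.35 ± 0.22 in dark. Per3 had 1.74 ± 0.63 in dark and 0.37 ± 0.64 in light (edgeR's quasi-likelihood test, adjusted p = 0.156 and 0.891).

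The remaining genes were not called between the lines. The log2 fold change of Cry2 was 0.04 ± 0.29 (SE) in light and 0.41 ± 0.28 in dark, and that of Cry1 0.89 ± 0.91 and 1.84 ± 1.25. Arntl was the 1 gene with a negative estimate in both conditions, -1.06 ± 0.65 in light and -0.27 ± 0.67 in dark, and Npas2 had -1.85 ± 1.17 and 2.14 ± 1.61. None of these passed edgeR's quasi-likelihood test, and the smallest adjusted p among them was 0.514. Without overlap over the shallow libraries, 4 genes were higher in P815-IFNG in light (Clock, Per1, Per2, Cry1) against 12.9% of all genes, and 3 in dark (Per1, Per2, Per3) against 18.6%, while 0 were lower in light or in dark against 11.7% and 15%. Without adjustment, 1 gene in light (Per1) and 3 in dark (Per1, Per2, Per3) were under 0.05, against 11.1% and 16.3% of all genes. No gene of the 8 was called for a difference between the lines in the light effect (smallest adjusted p = 0.846 by edgeR's quasi-likelihood test, background 0.016%), and 1 (Npas2) was under 0.05 without adjustment against 5.73% of all genes.

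**Figure D4:**
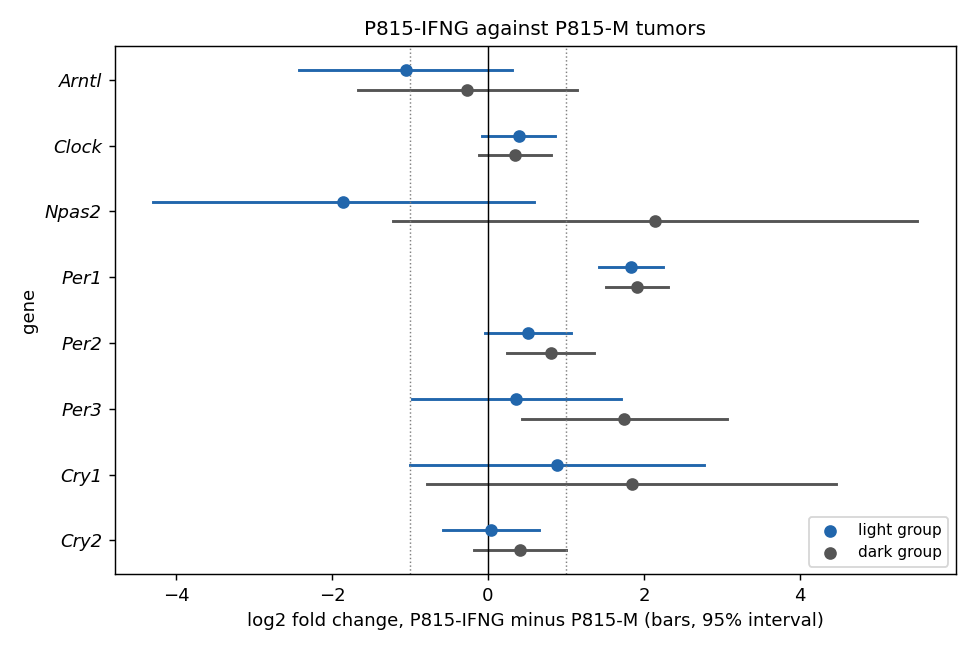
Log2 fold change of each core clock gene, P815-IFNG minus P815-M, in the light and dark groups. Points are edgeR estimates, horizontal bars their 95% intervals and dotted lines a log2 fold change of 1 in either direction. Only the Per1 intervals lie wholly above 1.

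Other genes of the clock were read beside Per1. Of 13 genes in the accessory loops, 0 were called between light and dark. Between the lines, 1 was called in light (Nr1d2) and 2 in dark (Nr1d2, Tef), all higher in P815-IFNG. Among all genes, 0.436% were called between the lines in light and 1.54% in dark. Nr1d2 encodes the repressor REV-ERB beta and Tef an output transcription factor of the PAR bZIP family. Nr1d2 was at 12.5 to 19.1 CPM in the shallow P815-IFNG libraries and at 28.1 (light) and 20.7 (dark) CPM in the deep ones. In P815-M libraries it was at 1.56 to 5.07 CPM. Its log2 fold changes were 2.02 ± 0.41 (SE) in light and 2.18 ± 0.40 in dark (edgeR's quasi-likelihood test, adjusted p = 0.0289 and 0.00684). Tef had 0.83 ± 0.23 in light and 1.08 ± 0.22 in dark (adjusted p = 0.122 and 0.0129, the same test). The median over the 13 genes was 0.58 in light and 1.08 in dark, beside 0.02 and 0.06 over all genes. Neither gene was called when the deep-library term was dropped, and Nr1d2 was not called in light over the 10 shallow libraries alone (edgeR's quasi-likelihood test, adjusted p = 0.0952). Of 12 modifiers of clock proteins, such as the casein kinases that phosphorylate PER, 0 were called in any comparison.

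Lists of genes that respond to signals known to induce Per1 were also counted. Of 7 glucocorticoid-responsive genes, 0 were called between light and dark. Called higher in P815-IFNG than in P815-M were 2 in light (Tsc22d3, Fkbp5) and 3 in dark (Tsc22d3, Klf9, Zbtb16). Among all genes, 0.436% were called between the lines in light and 1.54% in dark. Tsc22d3, which encodes the glucocorticoid-induced leucine zipper GILZ, had log2 fold changes of 1.45 ± 0.22 (SE) in light and 1.16 ± 0.21 in dark (edgeR's quasi-likelihood test, adjusted p = 0.00163 and 0.00684). Fkbp5, a co-chaperone of the glucocorticoid receptor, had 1.05 ± 0.20 and 0.80 ± 0.20 (adjusted p = 0.0196 and 0.0393, the same test), the latter under the minimum change. Klf9, a zinc finger transcription factor, had 1.96 ± 0.29 in dark (adjusted p = 9.8e-04, the same test). Zbtb16 had at most 3 counts in each P815-M library and 10 to 42 in the shallow P815-IFNG libraries, but 47 and 20 in the deep ones, which is 1.09 and 0.446 CPM. None of these genes was called with no term for the deep libraries. The median of the 7 genes was 0.86 in light and 1.16 in dark. In each condition 6 estimates were positive and 1 negative (-0.23 in light, -0.72 in dark). Their summed level in the shallow libraries was 361 to 411 CPM in P815-IFNG and 251 to 286 CPM in P815-M in light. In dark the ranges overlapped, with 370 to 466 CPM in P815-IFNG and 288 to 392 CPM in P815-M. Of 8 CREB and early response genes 0 were called in any comparison, with medians of 0.29 in light and 0.12 in dark. The part of these signals in the Per1 difference was not tested.

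**Figure D5:**
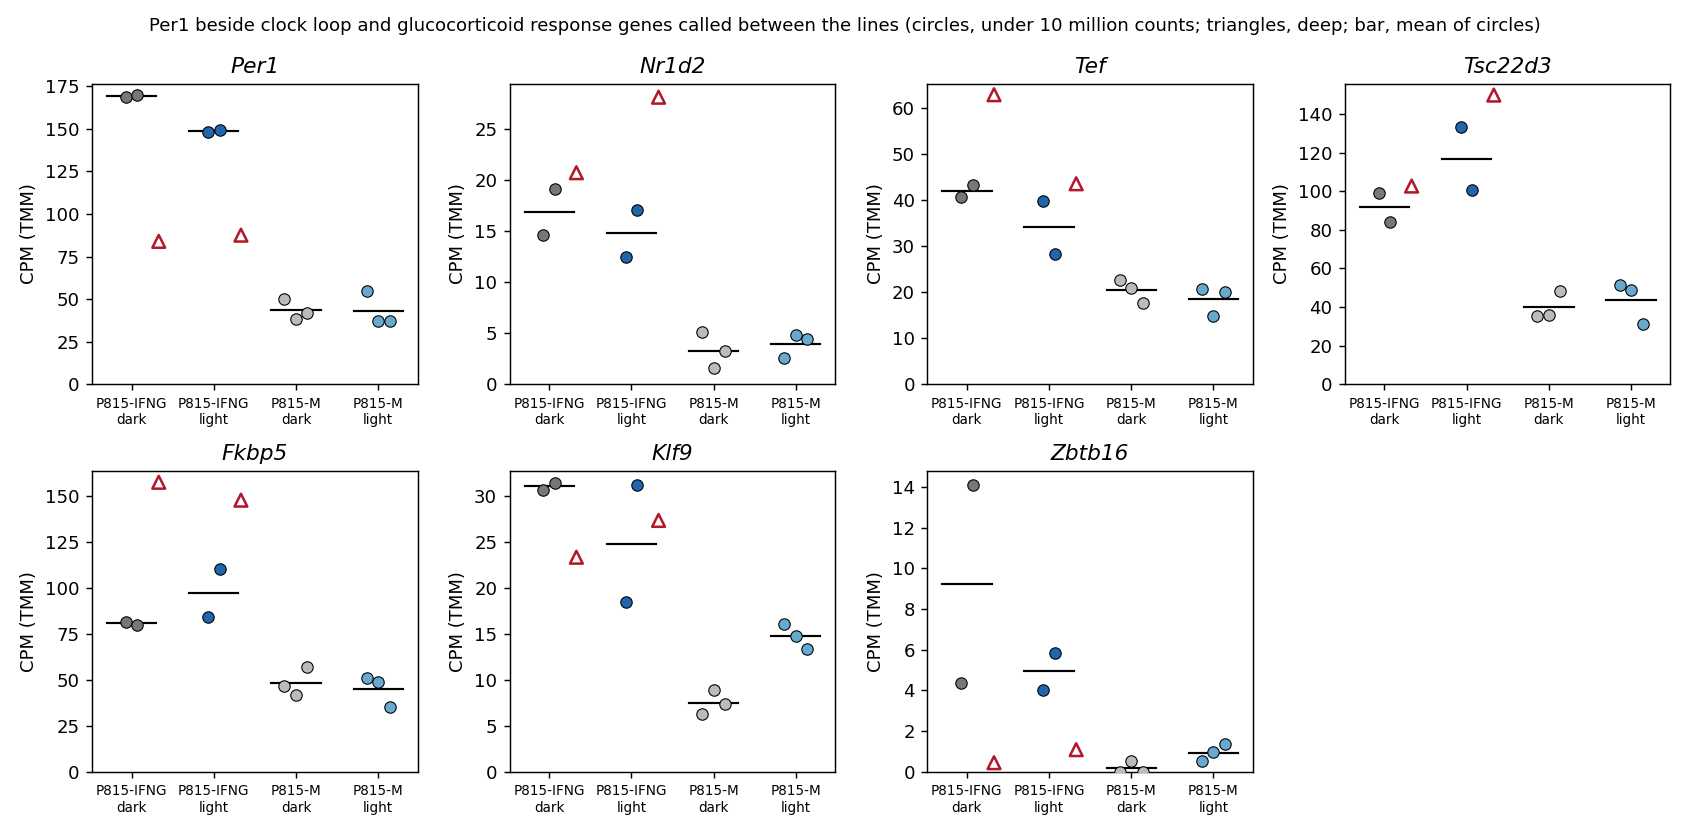
Per1 beside the accessory loop and glucocorticoid-responsive genes called between the lines (CPM, TMM-scaled, linear axis from 0) in each library. Circles are the shallow libraries, bars their mean and triangles the 2 deep libraries. The P815-IFNG circles lie above the P815-M circles in every panel.

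Markers of other cell types moved with the lines in part. The summed level of 9 macrophage and monocyte markers was 1735 to 1809 CPM in P815-IFNG dark and 733 to 1049 CPM in P815-M dark tumors (shallow libraries), and C1qa and C1qb were called higher in P815-IFNG. In light the ranges overlapped, with 1300 to 2015 CPM in P815-IFNG and 1601 to 1859 CPM in P815-M, and 0 of the 9 were called. All 7 adipocyte markers were estimated higher in P815-IFNG in light and in dark, with 0 called and summed levels of 10.7 to 21.3 against 2.87 to 17.4 CPM in light and 128 to 187 against 2.88 to 26.0 CPM in dark. Of 7 fibroblast markers, Dcn and Lum were called higher in P815-IFNG in dark and 0 in light, and of 10 skeletal muscle markers Myh4 was called lower in light and higher in dark. No marker of endothelial cells (7 genes), T cells (8 genes) or mast cells (12 of 13 genes tested) was called between the lines. The part of these cells in the Per1 difference was not tested.

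The genes whose level followed Clock and Per2 most closely were listed from 11997 genes by Pearson's r over the 10 shallow libraries. For Clock these were Med22 (r = 0.95), Prcd (0.94) and Gga1 (0.93), and for Per2 they were Trim47 (0.96), Neu4 (0.96) and Dnaaf3 (0.95). Among the 8 genes, Per2 was closest to Clock (r = 0.82) and Per1 (0.77), and Arntl ran at -0.36 with Per1. The libraries share line and light condition, so these values describe the 10 libraries only.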

How the data were processed

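RNA-seq libraries (TruSeq Stranded mRNA kit) of 12 tumors were deposited by the authors as raw HTSeq counts per gene. Per the submitters' processing notes and the study's methods, reads were aligned with STAR 2.7.9a to mm10 with the knock-in sequences added and counted with HTSeq 0.13.5. The deposited counts carry no batch correction. Here, 13 mitochondrial rows were removed, genes totalling 10 counts or more over all libraries were kept, and edgeR 4.0.16 (R 4.3.3) was fitted to all 12 libraries with TMM scaling, 1 mean per group and a term for the 2 deep libraries. Calls needed a Benjamini-Hochberg adjusted p of 0.05 or less and a log2 fold change of 1 or more in size. CPM used TMM-scaled library sizes, the arms log2 CPM (prior count 2), and levels per length the exon union of GENCODE M21 (GRCm38). Intervals of count ratios are exact and cover counting error only. Labels call the samples biological replicates. The fits were tested on simulated data. All 8 genes are named throughout. Genes of the accessory loops, modifiers and other lists are named only where called, and genes of most similar level only for the first of Arntl, Npas2 and Clock and the first of Per2, Per1, Per3, Cry1 and Cry2 whose median count over the shallow libraries reached 10. Mast cell markers, chosen after their values were seen, are named to check the labelled cell type. The members and lists were chosen with earlier results of these data known. Alternatives were DESeq2 1.42.0, its size factors, other filters, ComBat-seq (sva 3.50.0), a replicate block, no deep-library term, and leaving out libraries.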

Additional observations from a re-analysis of the deposited data

How the results depend on the processing

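The fitted fold changes, calls, levels and arm differences were recomputed, and the permutation tests and correlations were not, under alternatives for the term, the scaling, the filter, the tool, the batch correction and the libraries. Of these values, 1050 for core clock genes and 142 for counts, levels or arms kept their direction and side of the threshold, or moved by less than the replicate spread. With 12 libraries and no term for the deep libraries, 0 core clock genes were called between the lines in light and 0 in dark, where 1 was called as reported, and Per1 had 1.57 in light and 1.69 in dark; the cause was not tested. With the 10 shallow libraries, the log2 estimate changed sign for Per3 with both lines together (-0.12), Npas2 in P815-IFNG light against dark (0.38) and Cry2 between the lines in light (-0.034, and -0.040 with only the libraries compared). With Arntl and Npas2 set against Per1, Per2 and Per3, the arm difference, light minus dark, was 0.19 in P815-IFNG (-0.15 as reported, the sign turned) and 1.27 in P815-M (0.55 as reported). None of these estimates was called.

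When each library was left out in turn, Per1 stayed called between the lines (1.74 to 2.04 in light, 1.83 to 2.03 in dark). Signs changed only in uncalled estimates. With both lines together, Per3 ranged from -0.12 to 0.57 and Cry2 from -0.20 to 0.070. Light against dark, Npas2 in P815-IFNG ranged from -1.73 to 0.40, and in P815-M Per1 ranged from -0.23 to 0.094 and Cry2 from -0.13 to 0.41. Between the lines, Cry2 in light ranged from -0.11 to 0.27 and Arntl in dark from -0.64 to 0.23. For the difference between the lines in the light effect, Clock ranged from -0.10 to 0.17 and Per1 from -0.19 to 0.13. After the data were seen, the 19 called results of list genes were recomputed too. None changed sign, 0 were called with no term for the deep libraries (smallest adjusted p = 0.14 by edgeR's quasi-likelihood test), 13 over the shallow libraries alone, and 7 after leaving out any library. Those lost most often on leaving out 1 library were Pvalb (6 of 12 libraries), Nr1d2 in light, Lum in dark and C1qa in P815-M light against dark (5 of 12 each).

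Same-numbered samples deviated together only in the P815-IFNG light and dark groups (r = 0.81 to 0.95, both replicates 3 being deep, and 0.07 without these), and elsewhere at -0.32 to 0.32, so that the number was not taken as a pairing. With the replicate block, Per1 was 1.79 in light and 1.86 in dark, and no call of a core clock gene changed, while genes called in P815-IFNG light against dark went from 2 to 62 and in the difference between the lines from 3 to 16. Over all genes, the number called ranged from 0 (no term) to 351 (no minimum fold change) with both lines together against 149 as reported, from 0 to 211 (no filter) against 2 in P815-IFNG, from 0 to 429 (no filter) against 194 in P815-M, from 3 (no term) to 262 (ComBat-seq) against 82 between the lines in light, from 2 (no term) to 640 (no filter) against 290 in dark, and from 0 to 203 (no filter) against 3 for the difference. Low counts limit Arntl, Npas2, Per3 and Cry1, of which edgeR's own filter on low counts dropped Npas2 and Cry1.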
